A study of Mus musculus with 12 samples.

Results

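The genes described here encode the heterogeneous nuclear ribonucleoproteins (hnRNPs) and the neuronal proteins that choose between splice sites, in mouse hippocampus with and without N40K, a truncated U1-70K protein. They are 47 named genes of 13 families, taken by name from the deposited expression table whatever their values. Each was found, in 51 of 23352 table entries, because 4 further entries join the name of Hnrnpa1 or Hnrnpa3 with that of a near-identical copy. The 12 RNA libraries form 4 groups of 3: N40K transgenic mice at 12 months of age, wild-type littermates at 12 months, N40K transgenic mice at 3 months, and wild-type littermates at 3 months. The mice are on the C57BL/6J strain. The transgenic mice come from the single line Tg396, in which a modified CaMKIIa promoter drives N40K in neurons, and the wild-type littermates carry no transgene. RNA came from whole hippocampus, so glial and vascular RNA, from cells that the label does not name as expressing N40K, is in every library. The labels do not say whether each library is a separate mouse, and the p-values measure the spread between these libraries.

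U1-70K, the product of Snrnp70, is a core protein of U1 snRNP, the nuclear RNA and protein particle that pairs with the start of an intron. The proteins described here bind short RNA motifs near exons and help or hinder that recognition, so that an exon is kept or skipped. Several are made mainly in neurons (NOVA, RBFOX, the neuronal ELAVL proteins, Ptbp2, Srrm4), where they set the exon choices of synaptic and channel proteins, and many bind and regulate each other's transcripts.

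Some of the sequences matter before the values do, because Hnrnpa1 has 2 processed pseudogenes that the table could not always keep apart. Gm10052, on mouse chromosome 9, is 960 bases long and identical at all 960 to the coding sequence of transcript Hnrnpa1-202 (its bases 61 to 1020) in GENCODE M21. Gm5643, on chromosome X, is 98.75% identical over 962 aligned bases, with 12 differing bases. The stretch at bases 68 to 127 of Hnrnpa1-202 is shown with the same stretch of each copy, 5′ to 3′ and on the strand of the transcript, because it holds 2 of the differences. Capitals mark bases at which Hnrnpa1 and Gm5643 differ.
Hnrnpa1: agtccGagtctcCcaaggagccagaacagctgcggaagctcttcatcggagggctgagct
Gm10052: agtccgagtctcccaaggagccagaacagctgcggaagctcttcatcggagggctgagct
Gm5643: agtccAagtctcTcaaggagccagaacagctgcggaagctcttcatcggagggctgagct
Within this stretch Hnrnpa1 and Gm10052 are the same, and Gm5643 differs from both at 2 bases. Reads are longer than the stretch, so their other bases also count. A copy holds an exact match to 52.56% of all 100-base windows of Hnrnpa1-202, and to between 25.34% and 72.72% over the 5 Hnrnpa1 transcripts. The 4 Hnrnpa1 entries of the table are Hnrnpa1 alone, Hnrnpa1 joined with Gm10052, Hnrnpa1 joined with Gm5643, and all 3 names joined. No source used here says how the authors divided reads between them, and each entry's level is uncertain. Hnrnpa3 has the same problem with Gm6793, which holds 18.12% to 56.91% of the 100-base windows of its protein-coding transcripts.

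Values were FPKM, read fragments scaled to transcript length and to the size of the library, and tests used log2(FPKM + 1). A value after ± is the standard error (SE) of a log2 difference. Every one of the 51 entries passed the filter on low values, so no member was left out. Depth was estimated at 39.76 to 98.14 M fragments per library (M, mega), and is approximate. Snrnp70 separated the genotypes, at 305, 320.02 and 259 FPKM in N40K mice, against 138, 95.96 and 133 FPKM in wild type at 12 months, and 399, 401 and 377 FPKM in N40K mice, against 179, 161 and 179 FPKM in wild type at 3 months. Xist was at 17.3 FPKM in N40K replicate 3 and at 14.6 and 13.5 FPKM in wild-type replicates 2 and 3 of the 3-month groups, and at 0.112 FPKM or less in the other 9 libraries. All 12-month libraries thus lacked Xist, the 3-month genotypes held unequal numbers with it, and age and sex cannot be told apart in full. In wild-type replicate 2 of the 12-month group, genes over 6000 bases averaged 0.10 below the mean of the other libraries of its group on the log2 scale. That was the lowest of any library, and wild-type replicate 3 of the 12-month group stood 0.091 above by the same measure. All 13 neuron markers were measured. Their summed level was 2640 to 2717 FPKM in N40K mice, against 2902 to 3052 FPKM in wild type at 12 months, and 2638 to 2765 FPKM in N40K mice, against 2765 to 3088 FPKM in wild type at 3 months. In bulk RNA, fewer cells of a type and less RNA per cell cannot be told apart.

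Levels of these regulators spanned from 3.99 to 178 FPKM over all entries and libraries. On that per-length scale the most abundant, as means over the 12 libraries, were Hnrnpa2b1 at 158 FPKM and Hnrnpk at 153 FPKM, followed by Hnrnph1 at 119, the 3-name Hnrnpa1 entry at 114 and Ewsr1 at 113 FPKM. The lowest, after Nova2, were Srrm4 at 5.61, Nova1 at 5.58 and Khdrbs2 at 4.99 FPKM. Neighbours in this order mostly overlapped: Hnrnpa2b1 and Hnrnpk shared the range from 141 to 168 FPKM, and Srrm4, Nova1 and Khdrbs2 had overlapping ranges at the bottom. Nova2 did not overlap Srrm4, the next entry below it, in any library. In the PTBP family, Ptbp2, the neuronal polypyrimidine tract protein, averaged 33.2 FPKM and Ptbp1, which neurons largely switch off, 14.1 FPKM.

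**Figure D1:**
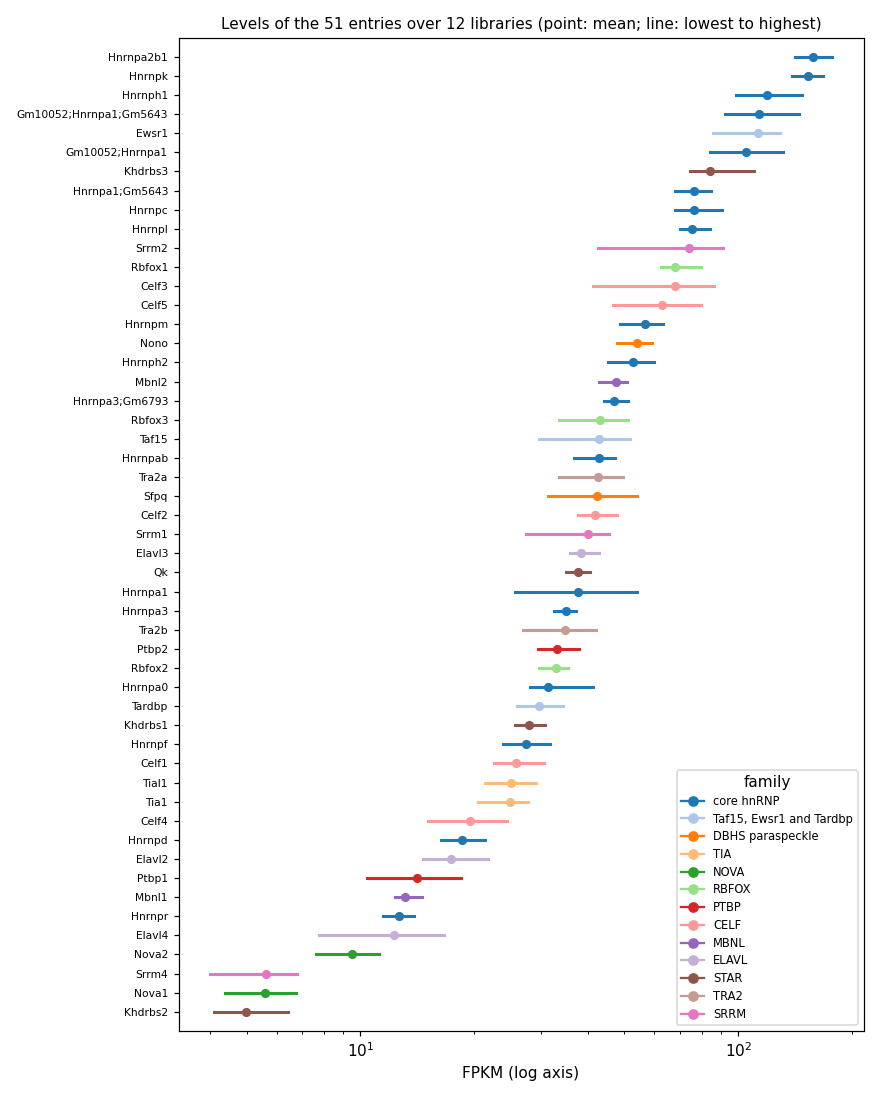
Each row is a table entry, with the mean over the 12 libraries as a point and the lowest to highest library as a line, in FPKM on a log axis. Colours give the family, and entries run from Hnrnpa2b1 at 158 FPKM down to Khdrbs2 at 4.99 FPKM.

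At 12 months 11 of the 51 entries were called (limma, adjusted p under 0.05): 6 were higher in N40K mice and 5 lower. That is 21.6% of the entries, against 18.9% of all 13945 genes tested (11.2% higher, 7.71% lower). At 3 months 8 were called, 5 higher and 3 lower, which is 15.7%, against 11.4% of all genes (7.95% higher, 3.49% lower). With the genotype difference taken as the mean of both ages, 15 were called, 6 higher and 9 lower, which is 29.4%, against 25.0% of all genes (15.5% higher, 9.54% lower). These shares are near the background, and no excess over genes at large is read from them. The median log2 difference of the 51 entries was -0.018 at 12 months and -0.033 at 3 months, against 0.0066 and 0.020 for all genes. Under the 4 other scalings (median-ratio, quantile, length trend or GC trend removed) the members called were 3 to 5 higher and 4 to 6 lower at 3 months, and 4 to 7 higher and 8 to 13 lower on average. No entry differed 2-fold or more between any pair of groups compared. Hnrnpa1 alone, Nova2 and Celf5 were called higher, and Hnrnph1 lower, at both ages. A further 3 entries were called only in the average, and 33 in none of the 3 genotype comparisons. The 3-month calls leaned on single libraries. Only 3 entries were called without N40K replicate 3, 3 without wild-type replicate 2 and 5 without wild-type replicate 3. Those are the 3 libraries with Xist. Of the 3-month libraries without Xist, leaving out wild-type replicate 1 gave 6 calls, N40K replicate 2 gave 7 and N40K replicate 1 gave 10. Each such fit also has fewer libraries. With Xist as a covariate 6 were called, and the part of sex was not tested. Without wild-type replicate 2 of the 12-month group, which enters the estimate of the spread, 13 were called at 3 months. At 12 months 7 were called without N40K replicate 2. The groups of an age did not overlap for 17 of the 51 entries at 12 months, against 38.8% of all genes, and for 24 at 3 months, against 31.9%.

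**Figure D2:**
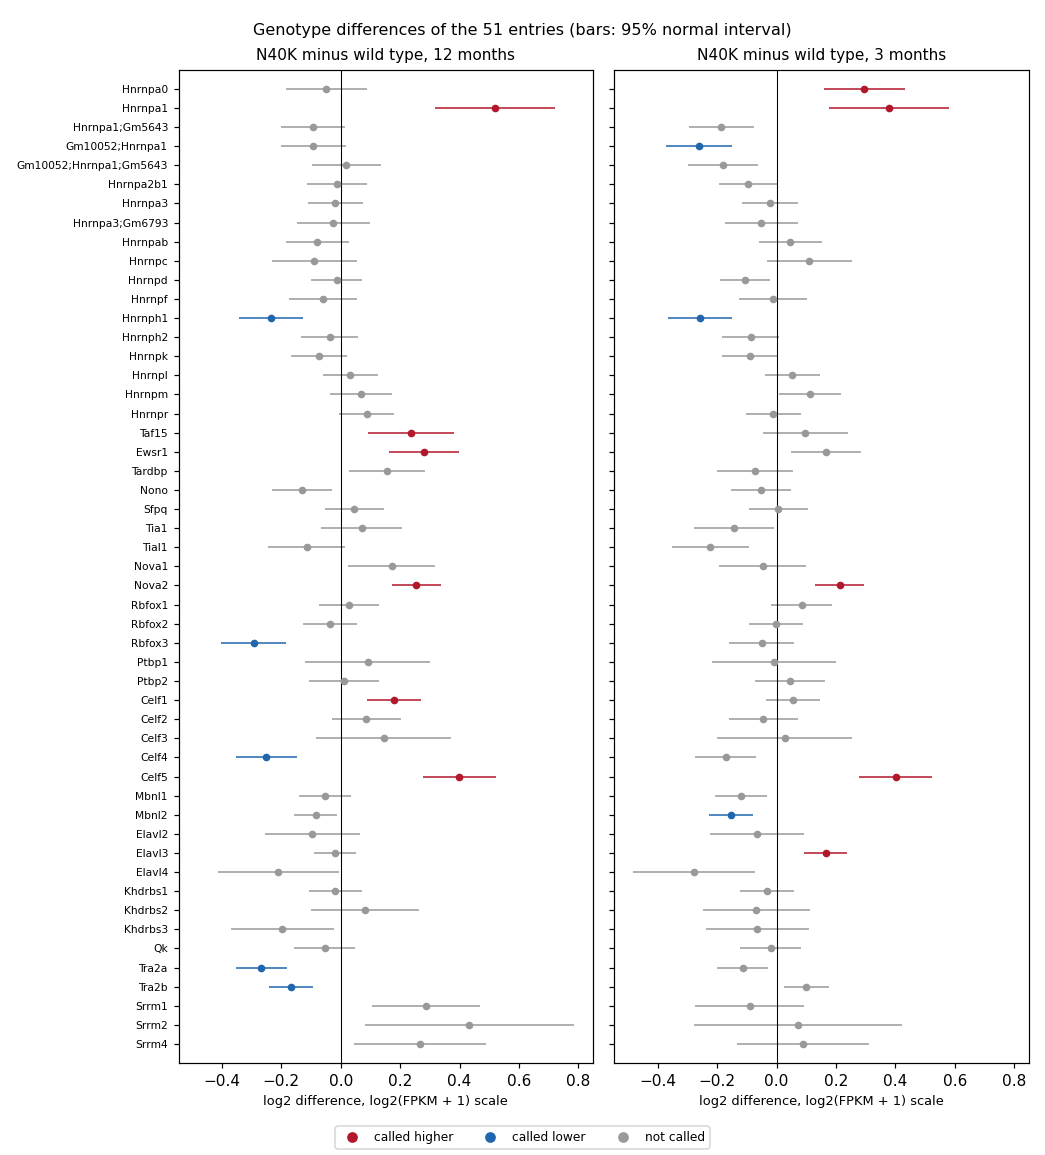
Points are log2 differences, N40K minus wild type, on the log2(FPKM + 1) scale for each of the 51 entries at 12 months (left) and 3 months (right), with bars for the 95% interval from the standard error. Red and blue mark entries called higher and lower, and Hnrnpa1, Nova2, Celf5 and Hnrnph1 are coloured in both panels.

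The hnRNP A and B proteins coat new transcripts and mostly favour exon skipping. Hnrnpa1 encodes hnRNP A1, the best known of them, and its entries did not move together. At 12 months the entry of Hnrnpa1 alone measured 46.8, 35.3 and 35.6 FPKM in N40K mice, against 27.1, 27.8 and 25.6 FPKM in wild type. At 3 months it measured 53.8, 42.4 and 47.7 FPKM in N40K mice, against 35.9, 37.2 and 36.3 FPKM in wild type. Every N40K library was above every wild-type library of its age. The log2 difference was 0.52 ± 0.10 at 12 months (adjusted p 0.00637) and 0.38 ± 0.10 at 3 months (adjusted p 0.0375). The 3-month call was lost in 9 of 25 alternatives and the 12-month call in none.

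The entry that joins Hnrnpa1 and Gm10052 went the other way at 3 months. It measured 111, 98.3 and 110.3 FPKM in N40K mice, against 126, 131 and 125 FPKM in wild type at 3 months, a difference of -0.26 ± 0.056 with an adjusted p of 0.0127. Its 12-month values were 95.1, 91.3 and 83.97 FPKM in N40K mice, against 97.4, 94.7 and 95.9 FPKM in wild type, with overlapping groups and a difference of -0.092 ± 0.056. The entry of Hnrnpa1 and Gm5643 measured 75.6, 74.4 and 68.2 FPKM in N40K mice, against 83.4, 72.2 and 77.5 FPKM in wild type at 12 months and 74.7, 72.1 and 71.6 FPKM in N40K mice, against 83.5, 84.5 and 80.9 FPKM in wild type at 3 months. It was called lower only in the average over both ages, at -0.14 ± 0.039 with an adjusted p of 0.0225, and its 3-month groups did not overlap. At 3 months it was called in 9 of 25 alternatives, such as with the length trend removed (-0.23, adjusted p 0.0438). The averaged call of the Gm5643 entry was lost in 3 alternatives, such as quantile normalization (-0.11, adjusted p 0.105). The 3-name entry stood at 0.019 ± 0.06 at 12 months and -0.18 ± 0.06 at 3 months, adjusted p 0.855 and 0.0782, and was not called. With the choroid plexus gene Ttr as a covariate it was called lower at 3 months (-0.20, adjusted p 0.017) and in the average (-0.12, 0.0266). Without N40K replicate 1 of the 3-month group it was also called lower at 3 months (-0.23, 0.0409). Hnrnpa1 alone thus stood higher in N40K mice while the entries that share reads with the copies shown above stood lower or were not called. Whether the gene's total output differed was not tested, because FPKM of overlapping entries cannot be added.

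Hnrnpa0, another A/B protein gene, was called higher at 3 months. Its 3-month values were 32.4, 41.3 and 36.2 FPKM in N40K mice, against 29.6, 30.2 and 28.8 FPKM in wild type, with no overlap, a difference of 0.30 ± 0.069 and an adjusted p of 0.02. Its 12-month values of 28.2, 30.1 and 29.5 FPKM in N40K mice, against 30.2, 31.1 and 29.6 FPKM in wild type overlapped and gave -0.049 ± 0.069 (adjusted p 0.66). The genotype effect at 12 minus 3 months was -0.34 ± 0.098 (adjusted p 0.182) with all libraries and -0.43 (adjusted p 0.026) without N40K replicate 1 of the 3-month group. That replicate was the lowest of its group. The 3-month call of Hnrnpa0 was lost in 6 of 25 alternatives, among them the GC trend removed (0.24, adjusted p 0.051) and leaving out any wild-type library of that age.

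Hnrnph1 and its relatives hnRNP F and H2 bind runs of guanines near splice sites. Hnrnph1 measured 106, 98.7 and 99.8 FPKM in N40K mice, against 125, 112 and 122 FPKM in wild type at 12 months. At 3 months Hnrnph1 measured 120.2, 118 and 111 FPKM in N40K mice, against 135, 137 and 147 FPKM in wild type. It was lower in every N40K library than in any wild-type library of the same age. The differences were -0.23 ± 0.055 with an adjusted p of 0.0133 at 12 months, and -0.26 ± 0.055 with 0.0119 at 3 months. The 12-month call was lost with quantile normalization (-0.16, adjusted p 0.175) and without N40K replicate 2 (adjusted p 0.0576). The 3-month call was lost without N40K replicate 3 (adjusted p 0.0529).

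Of the other core hnRNP entries, Hnrnpa2b1, the 2 entries of Hnrnpa3, Hnrnpab, Hnrnpc, Hnrnpd, Hnrnpf, Hnrnph2, Hnrnpk, Hnrnpl, Hnrnpm and Hnrnpr were called in no genotype comparison. Their differences with the 3-name Hnrnpa1 entry ran from -0.088 (Hnrnpc) to 0.087 (Hnrnpr) at 12 months and from -0.18 (the 3-name entry) to 0.11 (Hnrnpm) at 3 months. Hnrnpk shares 330 exonic bases with Rmi1 and Hnrnpm 1169 with March2. Hnrnpk, which binds C-rich RNA and is among the most abundant, measured 147, 148 and 156 FPKM in N40K mice, against 153, 168 and 154 FPKM in wild type at 12 months and 151, 148 and 139 FPKM in N40K mice, against 153, 158 and 156 FPKM in wild type at 3 months. The 3-month groups did not overlap, with N40K lower. Its average of -0.082 ± 0.034 missed the threshold (adjusted p 0.103), but it was called lower after median-ratio scaling (-0.11, adjusted p 0.0297), removal of the length trend (-0.097, 0.0335) or removal of the GC trend (-0.080, 0.041).

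Taf15 and Ewsr1 encode related proteins that join transcription to RNA processing, and TDP-43, encoded by Tardbp, represses cryptic exons. At 12 months Ewsr1 measured 118, 117 and 115 FPKM in N40K mice, against 101, 85.7 and 102 FPKM in wild type. At 3 months its values were 129, 124 and 125 FPKM in N40K mice, against 115, 107 and 114 FPKM in wild type. Both ages separated without overlap, but only the 12-month difference was called, at 0.28 ± 0.06 with an adjusted p of 0.00907. The 3-month difference was 0.17 ± 0.06, with an adjusted p of 0.101, and it was called (0.00816) when wild-type replicate 2 of the 12-month group was left out of the fit. Ewsr1 shares 258 exonic bases with Rhbdd3 on the opposite strand. The strand setting of the counting is not given, so reads from those shared bases cannot be assigned to either gene.

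Taf15 was measured at 43.4, 39.3 and 37.1 FPKM in N40K mice, against 35.1, 29.7 and 36.7 FPKM in wild type at 12 months. At 3 months Taf15 was at 51.7, 50.6 and 49.1 FPKM in N40K mice, against 46.4, 47.01 and 47.97 FPKM in wild type. The 12-month difference was 0.24 ± 0.073 with an adjusted p of 0.0449, near the threshold, and it was lost in 18 of 25 alternatives. Without wild-type replicate 2, the lowest library at 29.7 FPKM, it was 0.15, with an adjusted p of 0.122. Tardbp stood higher in N40K mice at 12 months, at 34.3, 33.1 and 32.5 FPKM in N40K mice, against 32.3, 26.1 and 31.3 FPKM in wild type. It stood lower at 3 months, at 27.5, 27.1 and 26.04 FPKM in N40K mice, against 28.1, 28.9 and 27.99 FPKM in wild type. The groups did not overlap at either age, yet neither difference was called, at 0.16 ± 0.065 (adjusted p 0.117) and -0.072 ± 0.065 (adjusted p 0.551). Without wild-type replicate 2, the lowest 12-month library at 26.1 FPKM, the 12-month difference of Tardbp was 0.065, and without wild-type replicate 1 it was 0.21 and called (adjusted p 0.0478). Tardbp also overlaps Masp2 by 1817 exonic bases on the opposite strand.

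NONO and SFPQ pair with each other in paraspeckles, nuclear bodies that hold back RNA. Neither gene was called for genotype: Nono stood at -0.13 ± 0.051 at 12 months and -0.052 ± 0.051 at 3 months, and Sfpq at 0.046 ± 0.051 and 0.006 ± 0.051. After median-ratio scaling Nono was called lower at 12 months (-0.15, adjusted p 0.0416) and in the average (-0.12, 0.0197), as it was in the average with the length trend (-0.11, 0.0244) or GC trend (-0.097, 0.0387) removed. Nono, an X-linked gene, measured 47.9, 51.01 and 53.6 FPKM in N40K mice, against 53.3, 58.98 and 54.98 FPKM in wild type at 12 months and 55.6, 53.9 and 51.9 FPKM in N40K mice, against 54.8, 55.3 and 57.3 FPKM in wild type at 3 months, with overlapping groups at both.

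TIA1 and its relative encoded by Tial1 bind uridine-rich RNA just inside an intron and help recruit U1 snRNP to weak splice sites. Tial1 measured 25.5, 24.7 and 23.7 FPKM in N40K mice, against 28.8, 29.1 and 28.9 FPKM in wild type at 3 months, where every N40K library was lower. At 12 months its values of 23.5, 22.3 and 21.4 FPKM in N40K mice, against 25.7, 21.4 and 26.1 FPKM in wild type overlapped, through wild-type replicate 2 at 21.4 FPKM. The difference was -0.22 ± 0.066 (adjusted p 0.0512) at 3 months and -0.11 ± 0.066 (adjusted p 0.25) at 12 months. Averaged over both ages Tial1 was called lower, at -0.17 ± 0.047 with an adjusted p of 0.0219. Leaving out wild-type replicate 2 of the 12-month group gave calls at both ages, of -0.20 (adjusted p 0.0144) and -0.22 (0.00455). Tia1 stood at 0.07 ± 0.069 and -0.14 ± 0.069 and was not called, but without that replicate its 3-month difference of -0.14 was called, with an adjusted p of 0.0342.

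NOVA proteins bind YCAY repeats and control exons of synaptic genes. Nova2 was higher in all N40K libraries. It measured 9.93, 9.62 and 9.67 FPKM in N40K mice, against 8.03, 7.62 and 8.36 FPKM in wild type at 12 months. At 3 months Nova2 measured 11.2, 10.9 and 10.8 FPKM in N40K mice, against 9.47, 9.34 and 9.13 FPKM in wild type. The groups did not overlap at either age. The differences were 0.26 ± 0.042 (adjusted p 0.00246) at 12 months and 0.21 ± 0.042 (adjusted p 0.00868) at 3 months, and both were called under every alternative run. Nova1, its relative, measured 5.84, 5.504 and 5.24 FPKM in N40K mice, against 5.35, 4.38 and 4.69 FPKM in wild type at 12 months and 6.11, 6.01 and 5.51 FPKM in N40K mice, against 6.75, 5.896 and 5.71 FPKM in wild type at 3 months. It was not called, at 0.17 ± 0.075 (adjusted p 0.129) and -0.047 ± 0.075 (adjusted p 0.753).

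Nova2 and Hnrnpa1 are 2 of the 3 entries called higher at both ages. Each has a single start in the RefSeq promoter table for GRCm38.p6, so their promoters are shown, from 250 bases before to 50 after the start, on the plus strand of chr15:103240147-103240446 for Hnrnpa1 and chr7:18925638-18925937 for Nova2. Celf5, the other one, has 5 listed starts. Capitals mark the CCAAT box, the GC box GGGCGG and the TATA box TATAAA, each searched on both strands, and no matches overlap.
Hnrnpa1: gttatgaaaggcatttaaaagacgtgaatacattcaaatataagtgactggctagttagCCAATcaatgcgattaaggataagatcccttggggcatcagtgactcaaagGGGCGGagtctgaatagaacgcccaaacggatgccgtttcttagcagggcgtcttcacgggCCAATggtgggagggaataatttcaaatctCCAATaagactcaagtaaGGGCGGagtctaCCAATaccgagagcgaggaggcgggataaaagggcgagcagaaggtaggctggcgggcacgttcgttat
Nova2: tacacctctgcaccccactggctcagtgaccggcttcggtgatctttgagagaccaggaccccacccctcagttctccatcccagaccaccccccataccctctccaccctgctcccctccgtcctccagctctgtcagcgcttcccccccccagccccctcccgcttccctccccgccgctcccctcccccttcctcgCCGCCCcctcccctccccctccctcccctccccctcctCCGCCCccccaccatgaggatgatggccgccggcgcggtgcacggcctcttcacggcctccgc
The Hnrnpa1 window holds 4 CCAAT and 2 GGGCGG matches and is 48.33% G and C. The Nova2 window holds 0 CCAAT and 2 GGGCGG matches, both read on the minus strand, and is 71.33% G and C. Neither holds TATAAA. Of all 32851 promoters in the table, 37.41% hold CCAAT, 35.66% GGGCGG and 13.62% TATAAA on either strand. A match is a description of these letters and says nothing of binding.

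RBFOX proteins bind GCAUG and promote or block exons by their position. Rbfox3 encodes NeuN, the usual marker of neuronal nuclei. At 12 months Rbfox3 measured 36.2, 36.7 and 33.6 FPKM in N40K mice, against 45.8, 43.6 and 41.8 FPKM in wild type. The groups did not overlap, and the difference was -0.29 ± 0.056 with an adjusted p of 0.00531, called under every alternative run. At 3 months its values of 44.3, 45.95 and 47.3 FPKM in N40K mice, against 51.02, 44.9 and 46.6 FPKM in wild type overlapped, with a difference of -0.05 ± 0.056 (adjusted p 0.64). The genotype effect at 12 minus 3 months was -0.24 ± 0.079 (adjusted p 0.218), so the 12-month fall was not shown to be larger than that at 3 months. Rbfox1 and Rbfox2 were not called, with differences from -0.036 (Rbfox2) to 0.028 (Rbfox1) at 12 months and from -0.0024 (Rbfox2) to 0.085 (Rbfox1) at 3 months. Rbfox3 is also 1 of the 13 neuron markers, of which 4 were called lower at 12 months (Slc17a7, Rbfox3, Camk2a and Nefl) and 0 at 3 months. The oligodendrocyte precursor sum was also lower at 12 months, at 48.4 to 51.7 FPKM in N40K mice, against 58.0 to 63.5 FPKM in wild type. The sum of endothelial and mural markers was higher, at 115 to 126 FPKM in N40K mice, against 92.9 to 103 FPKM in wild type. Of those lists 2 of 5 precursor genes were called lower and 4 of 9 endothelial and mural genes higher. The oligodendrocyte sum was 1501 to 1594 FPKM in N40K mice, against 1669 to 1815 FPKM in wild type, with 0 of 10 genes called, and the astrocyte, microglia and choroid plexus sums overlapped. The part of these cell types in the members' differences was not tested.

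PTBP1 blocks neuronal exons in other cells and PTBP2 replaces it in neurons. Neither was called for genotype, with Ptbp1 at 0.09 ± 0.11 and -0.0089 ± 0.11, and Ptbp2 at 0.013 ± 0.06 and 0.044 ± 0.06, at 12 and 3 months. The larger error of Ptbp1 goes with libraries that ran from 10.4 to 18.5 FPKM, against 29.4 to 37.9 FPKM for Ptbp2.

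CELF proteins bind UG-rich RNA, and Celf3, Celf4 and Celf5 are made mainly in neurons. The family moved in both directions. At 12 months Celf5 measured 70.5, 69.7 and 63.1 FPKM in N40K mice, against 52.8, 46.7 and 53.95 FPKM in wild type. At 3 months Celf5 measured 79.8, 73.4 and 73.1 FPKM in N40K mice, against 58.4, 55.5 and 56.6 FPKM in wild type. Every N40K library was higher than any wild-type library of its age. Celf5 and Nova2 each overlap a non-coding gene on the opposite strand that is no entry of the table (543 bases of Gm16105, 2652 bases of Gm26821). The differences were 0.40 ± 0.062 (adjusted p 0.00187) and 0.40 ± 0.062 (adjusted p 0.00247), of nearly the same size at 12 and 3 months, and both were called under every alternative run. Averaged over both ages, Celf5 had the smallest adjusted p of the 51 entries, 9.51e-05, at 0.40 ± 0.044.

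Celf4 was lower in N40K mice. It measured 20.1, 20.05 and 19.3 FPKM in N40K mice, against 22.5, 24.5 and 24.4 FPKM in wild type at 12 months. Its 3-month values were 17.4, 15.1 and 16.2 FPKM in N40K mice, against 18.4, 18.6 and 17.98 FPKM in wild type. The groups did not overlap at either age. The 12-month difference of -0.25 ± 0.052 was called (adjusted p 0.00783) under every alternative run, and the 3-month difference of -0.17 ± 0.052 missed the threshold, with an adjusted p of 0.0562. Under the 4 other scalings Celf4 was called lower at 3 months too, at -0.19 to -0.20 (adjusted p 0.034 to 0.0463). Celf1, the widely expressed member, was called higher at 12 months, at 30.7, 29.5 and 30.04 FPKM in N40K mice, against 27.4, 24.8 and 27.2 FPKM in wild type. Its 3-month values, 24.03, 25.04 and 22.8 FPKM in N40K mice, against 22.6, 23.2 and 23.2 FPKM in wild type, overlapped. The differences of Celf1 were 0.18 ± 0.047 (adjusted p 0.0225) and 0.056 ± 0.047 (adjusted p 0.509), and the 12-month call was lost in 6 of 25 alternatives, such as without wild-type replicate 2 (adjusted p 0.0587). Celf2 and Celf3 were not called for genotype. Celf3 stood at 0.14 ± 0.12 at 12 months, and at -0.021 without wild-type replicate 2, which had 41.2 FPKM beside 61.0 and 56.2 FPKM in the other wild-type libraries.

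**Figure D3:**
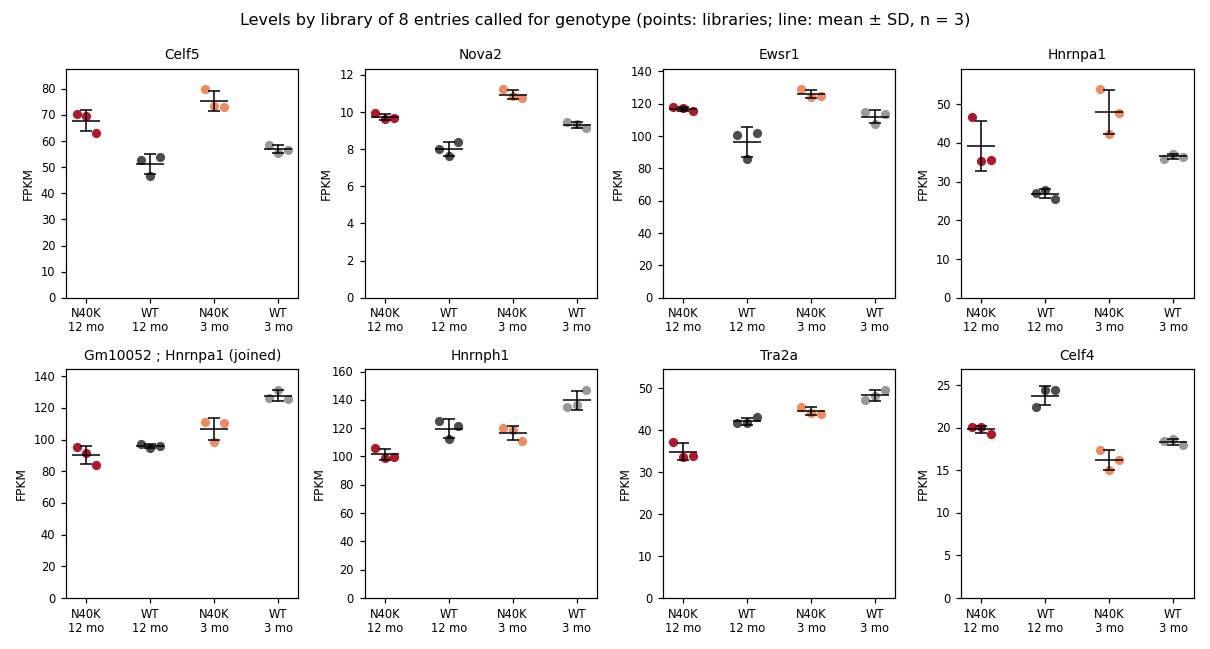
FPKM per library for 8 entries called for genotype, with N40K left of wild type at 12 and then at 3 months, the mean as a long tick and the SD over 3 libraries as a bar. Celf5, Nova2, Ewsr1 and Hnrnpa1 alone lie higher in every N40K library than in any wild-type library of their age, and Hnrnph1, Tra2a and Celf4 lie lower.

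MBNL proteins are the splicing factors trapped by CUG repeats in myotonic dystrophy. Mbnl2, the main one in brain, was lower in N40K mice at both ages without overlap. It measured 47.9, 46.2 and 47.03 FPKM in N40K mice, against 50.6, 50.5 and 48.7 FPKM in wild type at 12 months. Its 3-month values were 45.4, 43.99 and 42.9 FPKM in N40K mice, against 47.5, 50.1 and 49.9 FPKM in wild type. The 3-month difference, -0.15 ± 0.038, was called with an adjusted p of 0.0239 and was lost in 6 of 25 alternatives. The 12-month difference was -0.085 ± 0.038 (adjusted p 0.136). Averaged over both ages, -0.12 ± 0.027 with an adjusted p of 0.00732 was called under every alternative run. Mbnl1 stood at -0.086 ± 0.031 in that average and missed the threshold (adjusted p 0.0666), and under the 4 other scalings it was called lower, at -0.086 to -0.11 (adjusted p 0.0247 to 0.0351).

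The neuronal ELAVL proteins bind U-rich and AU-rich RNA, stabilise messages and regulate exons. Elavl3 measured 42.7, 40.5 and 42.2 FPKM in N40K mice, against 37.5, 36.6 and 37.4 FPKM in wild type at 3 months, without overlap. It was called higher there, at 0.17 ± 0.037 with an adjusted p of 0.0149, a call lost in 4 of 25 alternatives, among them median-ratio scaling (0.13, adjusted p 0.0618) and the GC trend removed (0.12, 0.0516). At 12 months its values of 36.3, 37.01 and 36.9 FPKM in N40K mice, against 37.6, 38.3 and 35.9 FPKM in wild type overlapped (-0.019 ± 0.037, adjusted p 0.753), and the genotype effect at 12 minus 3 months was -0.18 ± 0.052 (adjusted p 0.177). Elavl4 measured 11.8, 13.8 and 13.3 FPKM in N40K mice, against 14.8, 16.7 and 13.99 FPKM in wild type at 12 months and 10.98, 7.77 and 9.398 FPKM in N40K mice, against 12.1, 11.7 and 10.7 FPKM in wild type at 3 months. It was called lower in the average over both ages, at -0.24 ± 0.074 with an adjusted p of 0.0321, a call lost in 8 of 24 alternatives. Elavl2 was not called, at -0.096 ± 0.081 and -0.066 ± 0.081.

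STAR proteins bind paired UAA-like motifs, and SLM2, encoded by Khdrbs3, controls neurexin exons. None of Khdrbs1, Khdrbs2, Khdrbs3 and Qk was called for genotype. Their differences ran from -0.20 (Khdrbs3) to 0.083 (Khdrbs2) at 12 months and from -0.068 (Khdrbs2) to -0.02 (Qk) at 3 months. Khdrbs3, the most abundant of the 4, measured 80.5, 81.9 and 82.05 FPKM in N40K mice, against 81.7, 109.9 and 91.04 FPKM in wild type at 12 months and 79.1, 74.3 and 83.98 FPKM in N40K mice, against 81.98, 87.9 and 78.6 FPKM in wild type at 3 months. Its highest library was wild-type replicate 2 of the 12-month group, and without it the 12-month difference was -0.081 in place of -0.20, while without wild-type replicate 1 it was -0.29 and called (adjusted p 0.0317). Qk encodes quaking, which acts mainly in glia.

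TRA2 proteins bind GAA-rich enhancers and promote exon inclusion. Tra2a measured 37.1, 33.5 and 33.9 FPKM in N40K mice, against 41.7, 41.6 and 43.1 FPKM in wild type at 12 months. At 3 months its values were 45.5, 44.2 and 43.8 FPKM in N40K mice, against 47.1, 48.1 and 49.6 FPKM in wild type. It was lower in N40K mice at both ages without overlap. The 12-month difference of -0.27 ± 0.043 (adjusted p 0.00233) was called under every alternative run, and the 3-month one of -0.11 ± 0.043 was not called (adjusted p 0.122). Tra2b stood on opposite sides of wild type at the 2 ages. At 12 months Tra2b measured 28.2, 26.9 and 27.6 FPKM in N40K mice, against 30.7, 32.4 and 30.1 FPKM in wild type, lower in every N40K library. At 3 months it measured 41.8, 41.4 and 42.1 FPKM in N40K mice, against 37.9, 39.02 and 39.7 FPKM in wild type, higher in every N40K library. The differences were -0.17 ± 0.038 (adjusted p 0.0119), which was called, and 0.10 ± 0.038 (adjusted p 0.12), which was not. The 12-month call of Tra2b was lost without N40K replicate 2 (-0.15, adjusted p 0.0565) and with only the groups of the contrast in the fit (-0.17, 0.0621).

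SRRM proteins bridge splicing factors across exons, and Srrm4 drives the microexons of neurons. None was called for genotype, yet all 3 stood higher in N40K mice at 12 months, by 0.29 ± 0.093 (Srrm1), 0.43 ± 0.18 (Srrm2) and 0.27 ± 0.11 (Srrm4), with adjusted p of 0.0527, 0.113 and 0.119. Srrm2, whose transcript is long, measured 88.7, 91.4 and 81.02 FPKM in N40K mice, against 78.5, 42.7 and 78.5 FPKM in wild type at 12 months and 77.4, 68.6 and 72.5 FPKM in N40K mice, against 70.97, 70.2 and 66.4 FPKM in wild type at 3 months. Wild-type replicate 2 held the lowest value of all 3 genes in their 12-month wild-type group. Without it the differences were 0.16, 0.14 and 0.15 for Srrm1, Srrm2 and Srrm4, with adjusted p of 0.111, 0.151 and 0.387. Other settings called Srrm1 higher at 12 months. They were quantile normalization (0.33, adjusted p 0.0404), the filter on the mean (0.29, 0.047) and leaving out wild-type replicate 3 of that age (0.37, 0.0229). Srrm1 was measured at 41.3, 42.1 and 38.4 FPKM in N40K mice, against 35.4, 27.4 and 37.2 FPKM in wild type at 12 months and 44.8, 39.98 and 39.7 FPKM in N40K mice, against 43.3, 43.8 and 45.5 FPKM in wild type at 3 months.

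The genotype effect at 12 minus 3 months was tested for each entry. None of the 51 was called (limma), against 0.0645% of all genes, 8 entries had an unadjusted p under 0.05, and the smallest adjusted p was 0.114, for Tra2b at -0.27 ± 0.054. No member was thus shown to respond to N40K differently at the 2 ages, including those called at 1 age and not at the other.

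Genes of related function were counted in the same fits. Of 45 other RNA-binding splicing regulators, 43 were in the table and 39 were tested. Of the 39, 6 were higher and 2 lower at 12 months, 3 higher and 1 lower at 3 months, and 9 higher and 3 lower with genotype averaged over both ages. These are 20.5%, 10.3% and 30.8% of the list, against 18.9%, 11.4% and 25.0% of all genes, and no excess is read from them. Hnrnph3, a relative of Hnrnph1, measured 35.6, 35.05 and 30.5 FPKM in N40K mice, against 28.4, 23.4 and 27.4 FPKM in wild type at 12 months and 42.8, 42.6 and 41.2 FPKM in N40K mice, against 32.1, 33.1 and 32.6 FPKM in wild type at 3 months. Its averaged difference of 0.35 ± 0.05 (adjusted p 0.000513) was opposite in sign to that of Hnrnph1, -0.25 ± 0.039. Its exons share 115 bases with Rufy2 on the opposite strand. Pspc1, the paraspeckle partner of NONO and SFPQ, stood at 0.16 ± 0.031 (adjusted p 0.0038), and Ybx1 and Dazap1 at 0.17 and 0.15. Fmr1, the gene of the fragile X protein, was lower in every N40K library, at 15.5, 15.5 and 14.7 FPKM in N40K mice, against 16.9, 18.6 and 17.6 FPKM in wild type at 12 months and 14.5, 13.9 and 13.5 FPKM in N40K mice, against 16.4, 17.1 and 16.7 FPKM in wild type at 3 months. Its averaged difference was -0.22 ± 0.032, with an adjusted p of 0.000606. Pcbp2 and Pcbp3, of the poly(C)-binding family, followed at -0.098 and -0.11.

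A list of 32 genes with exons that these proteins are known to regulate was also counted, 31 of them in the table and tested. At 12 months 3 were higher and 4 lower, at 3 months 1 higher and 2 lower, and on average 2 higher and 5 lower. These are 22.6%, 9.68% and 22.6% of the list, against 18.9%, 11.4% and 25.0% of all genes. Vamp1, a synaptic vesicle protein gene, measured 24.5, 24.2 and 24.97 FPKM in N40K mice, against 39.4, 35.3 and 33.01 FPKM in wild type at 12 months and 23.6, 25.6 and 27.8 FPKM in N40K mice, against 41.3, 35.2 and 32.1 FPKM in wild type at 3 months. Its averaged difference was -0.50 ± 0.063 (adjusted p 0.000241). Gphn, which encodes gephyrin, the scaffold of inhibitory synapses, measured 22.5, 21.7 and 22.3 FPKM in N40K mice, against 25.1, 26.6 and 25.8 FPKM in wild type at 12 months and 23.8, 22.2 and 22.6 FPKM in N40K mice, against 26.998, 28.2 and 26.2 FPKM in wild type at 3 months. Its averaged difference was -0.22 ± 0.029 (adjusted p 0.000306), and those of Add1 and Sort1 were -0.091 and -0.10. Nrxn2 and Cacna1b, a neurexin and a calcium channel gene, were higher, by 0.19 ± 0.032 and 0.27 ± 0.056. These are whole-gene levels, and exon use was not analysed here.

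More of these entries were called with age than with genotype. In N40K mice 30 of the 51 entries were called at 12 against 3 months, 9 higher and 21 lower, which is 58.8%, against 51.6% of all genes (15.1% higher, 36.5% lower). In wild-type mice 27 were called, 6 higher and 21 lower, which is 52.9%, against 41.6% of all genes (12.6% higher, 29.0% lower). The shares follow a background in which most genes called were lower at 12 months, and the direction depends on the scaling. With the length trend of each library removed, the median of all genes in N40K mice shifted to -0.0015, against -0.10 as deposited, and the members called were 8 higher and 9 lower. Under quantile normalization they were 13 higher and 5 lower, after median-ratio scaling 12 and 8, and with the GC trend removed 7 and 15. In wild type the 4 scalings gave 7 to 9 higher and 11 to 18 lower. All 4 scalings also bring the libraries to a common centre, so a smaller median of all genes follows from the scaling itself. Of the 10 oligodendrocyte markers 6 were lower and 0 higher at 12 months in either genotype. Of the 9 endothelial and mural markers 3 were lower and 2 higher in N40K mice, and 7 lower and 1 higher in wild type. Of the 13 neuron markers 3 were lower and 5 higher in N40K mice, and 2 lower and 6 higher in wild type. The part of these cell types was not tested. The comparisons of age and of genotype share libraries.

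**Figure D4:**
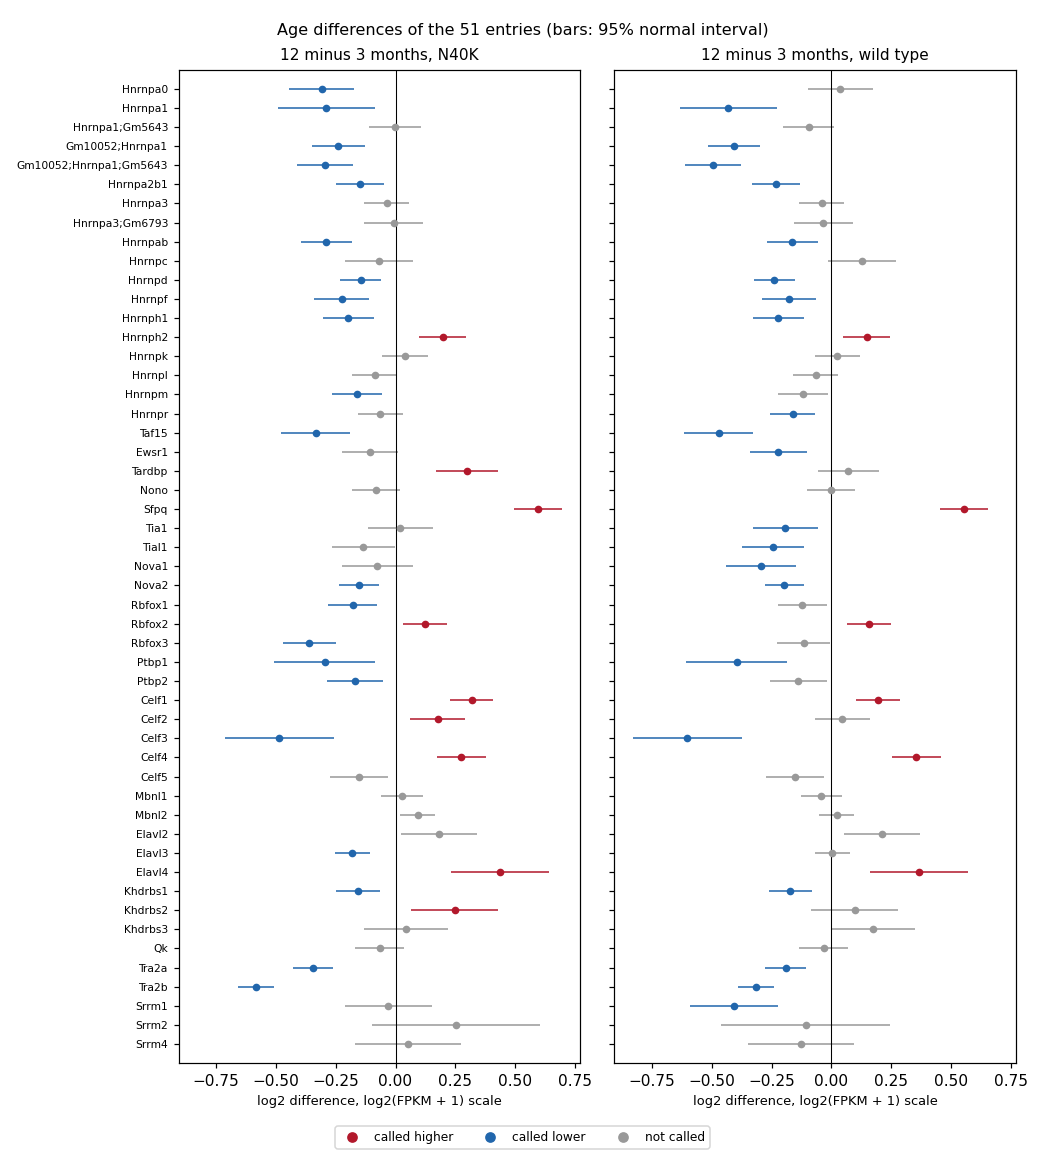
Points are log2 differences, 12 minus 3 months, on the log2(FPKM + 1) scale for each of the 51 entries in N40K mice (left) and wild-type mice (right), with bars for the 95% interval from the standard error. Sfpq at 0.60 and 0.56 and Tra2b at -0.58 and -0.31 carry 2 of the smallest adjusted p.

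Sfpq was the clearest rise with age. In N40K mice it measured 54.1, 50.5 and 50.8 FPKM at 12 months, against 33.5, 34.9 and 33.4 FPKM at 3 months. In wild-type mice Sfpq measured 51.5, 47.9 and 50.9 FPKM at 12 months, against 31.4, 35.3 and 34.7 FPKM at 3 months. The ages did not overlap, and the differences were 0.60 ± 0.051 (adjusted p 7.96e-06) in N40K mice and 0.56 ± 0.051 (adjusted p 2.4e-05) in wild type, called under every alternative run. Its partner Nono was not called, at -0.081 and -0.0019. Celf4 was higher at 12 months by 0.28 ± 0.052 in N40K mice and 0.35 ± 0.052 in wild type, also under every alternative run. Celf1 rose by 0.32 ± 0.047 (adjusted p 0.000247) and 0.20 ± 0.047 (0.00642), although with the length trend removed both calls were lost, at 0.090 and 0.042. Elavl4 was higher by 0.44 ± 0.10 (0.00488) and 0.37 ± 0.10 (0.0154), from the values given above, without overlap.

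Hnrnph2, an X-linked gene, measured 55.1, 54.9 and 55.2 FPKM at 12 months, against 51.2, 47.6 and 45.2 FPKM at 3 months in N40K mice and 54.5, 59.8 and 55.6 FPKM at 12 months, against 49.99, 52.4 and 50.7 FPKM at 3 months in wild type. The ages did not overlap. It was called higher in both genotypes, at 0.20 ± 0.049 and 0.15 ± 0.049, but with Xist as a covariate the wild-type difference was 0.12 and not called (adjusted p 0.171). Rbfox2 measured 34.7, 34.1 and 33.8 FPKM at 12 months, against 33.8, 29.7 and 30.6 FPKM at 3 months in N40K mice and 35.4, 35.2 and 34.6 FPKM at 12 months, against 31.6, 31.98 and 30.6 FPKM at 3 months in wild type. Only the N40K ages overlapped. It was called higher in both, at 0.12 ± 0.046 and 0.16 ± 0.046, and with the length trend removed the N40K difference reversed to -0.041. The N40K call of Rbfox2 was lost in 13 of 25 alternatives and the wild-type call in 3. In N40K mice alone Tardbp rose by 0.30 ± 0.065 (adjusted p 0.00287), against 0.071 ± 0.065 in wild type (0.411). With the length trend removed the N40K call of Tardbp was lost, at 0.095 (adjusted p 0.191). Without wild-type replicate 2 of the 12-month group Tardbp was also called in wild type, at 0.16 with an adjusted p of 0.00809. Celf2 and Khdrbs2 were likewise called higher in N40K mice only. Celf2 measured 47.9, 44.4 and 42.1 FPKM at 12 months, against 39.9, 40.9 and 37.7 FPKM at 3 months in N40K mice and 44.2, 38.8 and 43.4 FPKM at 12 months, against 40.1, 41.9 and 40.2 FPKM at 3 months in wild type. Khdrbs2 measured 6.44, 5.104 and 5.09 FPKM at 12 months, against 4.83, 4.55 and 4.11 FPKM at 3 months in N40K mice and 5.68, 5.06 and 4.75 FPKM at 12 months, against 5.26, 4.64 and 4.403 FPKM at 3 months in wild type. For both genes the ages overlapped in wild type and not in N40K mice. The N40K calls were at 0.18 ± 0.059 (adjusted p 0.0263) and 0.25 ± 0.092 (0.0422), and the Celf2 value reversed to -0.11 with the length trend removed. The Khdrbs2 call was lost in 9 alternatives, such as without N40K replicate 1 of the 12-month group (0.15). With a mean of 4.99 FPKM, Khdrbs2 was not tested under the filter on the mean.

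Tra2b was the clearest fall with age, from the values given above. The difference was -0.58 ± 0.038 (adjusted p 1.41e-06) in N40K mice and -0.31 ± 0.038 (adjusted p 0.000134) in wild type, called under every alternative run. Tra2a was lower, at -0.34 and -0.19, but with the length trend removed both calls were lost, at -0.12 (adjusted p 0.0814) and -0.043 (0.546), and the wild-type call also after median-ratio scaling and quantile normalization. Celf3 was also lower. It measured 58.4, 60.9 and 53.9 FPKM at 12 months, against 86.3, 81.1 and 76.3 FPKM at 3 months in N40K mice, a difference of -0.49 ± 0.12 (adjusted p 0.0048). In wild type it measured 60.97, 41.2 and 56.2 FPKM at 12 months, against 84.9, 77.6 and 76.6 FPKM at 3 months, a difference of -0.60 ± 0.12 (adjusted p 0.00201), and of -0.44 without replicate 2 of the 12-month group. The N40K call of Celf3 was lost with the GC trend removed, at -0.23 (adjusted p 0.112). Ptbp1 measured 11.9, 11.8 and 14.5 FPKM at 12 months, against 16.97, 15.9 and 14.7 FPKM at 3 months in N40K mice and 12.2, 10.4 and 13.1 FPKM at 12 months, against 14.8, 14.7 and 18.5 FPKM at 3 months in wild type. The ages did not overlap in either genotype, with differences of -0.30 ± 0.11 and -0.40 ± 0.11. The N40K call of Ptbp1 was lost in 10 of 25 alternatives, at -0.15 with the GC trend removed and -0.17 with the length trend removed, and the wild-type call in none. Taf15 was lower, at -0.33 ± 0.073 and -0.47 ± 0.073, and Nova2 at -0.15 ± 0.042 and -0.20 ± 0.042. The N40K call of Taf15 was lost under quantile normalization (-0.20) and with the length trend removed (-0.13). With the GC trend removed the Nova2 difference in N40K mice reversed to 0.062 and that in wild type was -0.030 and not called.

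**Figure D5:**
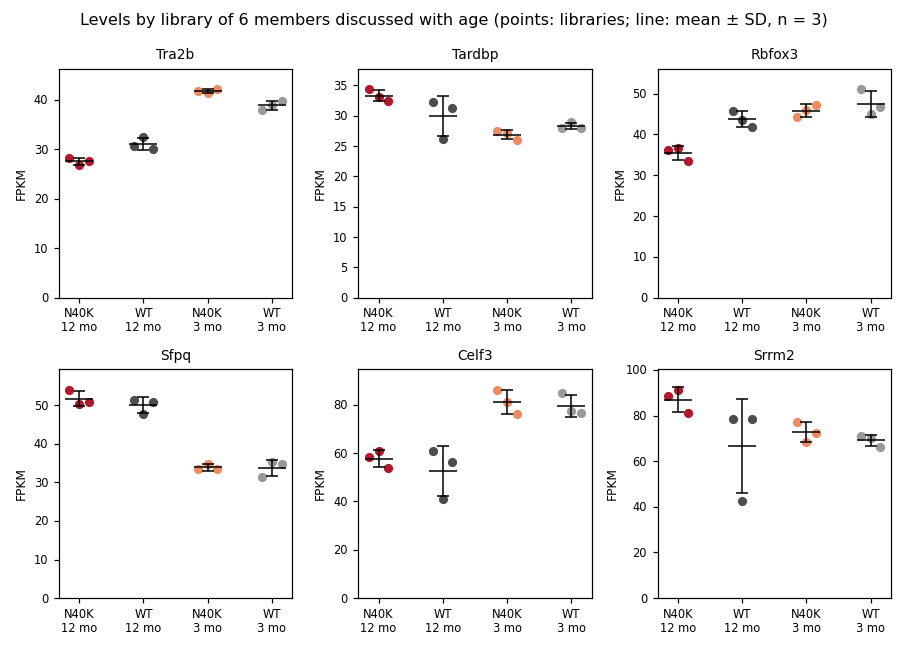
FPKM per library for 6 members, with N40K left of wild type at 12 and then at 3 months, the mean as a long tick and the SD over 3 libraries as a bar. Sfpq lies higher and Celf3 and Tra2b lower in every 12-month library than in any 3-month library, and wild-type replicate 2 of the 12-month group is the lowest point of Srrm2.

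Of the 18 core hnRNP entries, 10 were called lower and 1 higher at 12 months in N40K mice (55.6% lower, against 36.5% of all genes). In wild type 9 were called lower and 1 higher, where 29.0% of all genes were called lower. The N40K calls depended on the scaling: 9 of the 10 lower calls were lost with the length trend removed, 9 under quantile normalization, 7 after median-ratio scaling and 2 with the GC trend removed. In wild type 5 of the 9 were lost with the length trend removed, 5 under quantile normalization, 4 after median-ratio scaling and 1 with the GC trend removed. The 3-name Hnrnpa1 entry measured 105, 98.9 and 92.4 FPKM at 12 months, against 129.99, 114 and 121 FPKM at 3 months in N40K mice and 96.01, 96.4 and 99.7 FPKM at 12 months, against 137, 145 and 132 FPKM at 3 months in wild type. Every 12-month library was below every 3-month one of its genotype. It was lower, at -0.30 ± 0.06 and -0.49 ± 0.06, and the Gm10052 entry at -0.24 ± 0.056 and -0.41 ± 0.056. Hnrnpa1 alone was at -0.29 ± 0.10 and -0.43 ± 0.10, and the Gm5643 entry, at -0.0032 ± 0.055 and -0.096 ± 0.055, was not called. With the length trend removed, the N40K difference of the Gm10052 entry reversed to 0.021. Hnrnpa2b1, which carries RNA along neuronal and glial processes, measured 149, 145 and 145 FPKM at 12 months, against 172, 161 and 154 FPKM at 3 months in N40K mice and 146, 141 and 156 FPKM at 12 months, against 167, 177 and 178 FPKM at 3 months in wild type. The ages did not overlap for Hnrnpa2b1. Its differences of -0.15 ± 0.051 and -0.23 ± 0.051 were called, but in N40K mice the value reversed to 0.067 under quantile normalization and to 0.075 with the length trend removed.

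Hnrnpd encodes AUF1, which binds AU-rich messages. It measured 17.8, 17.5 and 16.3 FPKM at 12 months, against 19.6, 18.96 and 18.8 FPKM at 3 months in N40K mice and 17.3, 16.9 and 17.8 FPKM at 12 months, against 20.05, 21.4 and 20.5 FPKM at 3 months in wild type. All 12-month libraries were below those at 3 months, and the wild-type difference of -0.24 ± 0.043 (adjusted p 0.00149) was called under every alternative run. The N40K difference of -0.15 ± 0.043 was called, and lost in 4 of 25 alternatives (-0.040 under quantile normalization). Hnrnpab measured 36.8, 38.4 and 39.5 FPKM at 12 months, against 47.1, 47.2 and 46.5 FPKM at 3 months in N40K mice and 38.03, 44.3 and 39.2 FPKM at 12 months, against 43.7, 46.4 and 46.1 FPKM at 3 months in wild type. Its differences were -0.29 ± 0.054 and -0.16 ± 0.054, and the wild-type ages overlapped. The wild-type call of Hnrnpab was lost in 11 of 25 alternatives, such as with the length trend removed (-0.036), which also ended the N40K call (-0.11, adjusted p 0.0847). Hnrnpf measured 24.3, 23.9 and 26.4 FPKM at 12 months, against 28.4, 30.5 and 28.7 FPKM at 3 months in N40K mice and 25.6, 27.3 and 24.9 FPKM at 12 months, against 27.9, 28.9 and 31.7 FPKM at 3 months in wild type, without overlap, and was called lower, at -0.23 and -0.18. Both Hnrnpf calls were lost under quantile normalization (-0.10 and -0.10) and with the length trend removed (-0.050 and -0.052), and the wild-type call in 9 of 25 alternatives in all. Hnrnph1 stood at -0.20 ± 0.055 and -0.22 ± 0.055, both called. Both Hnrnph1 calls were lost under quantile normalization (-0.0012 and -0.11), with the length trend removed (-0.025 and -0.097) and after median-ratio scaling (-0.098 and -0.14).

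Members called with age in 1 genotype numbered 9 in N40K mice and 6 in wild type. Of the N40K ones, Hnrnpa0 was at -0.31 in N40K mice and 0.036 in wild type, Rbfox3 at -0.36 and -0.12, and Elavl3 at -0.18 and 0.0043. With the GC trend removed all 3 N40K calls were lost, at -0.12, -0.086 and -0.021. Rbfox1, whose protein is a main splicing factor of mature neurons, measured 68.6, 62.7 and 64.3 FPKM at 12 months, against 71.4, 79.6 and 70.8 FPKM at 3 months in N40K mice and 64.6, 64.1 and 62.9 FPKM at 12 months, against 72.03, 67.2 and 69.4 FPKM at 3 months in wild type. Hnrnpm measured 56.8, 54.9 and 53.4 FPKM at 12 months, against 61.6, 63.2 and 60.4 FPKM at 3 months in N40K mice and 55.6, 48.8 and 53.3 FPKM at 12 months, against 56.7, 54.3 and 60.1 FPKM at 3 months in wild type. The wild-type ages of Hnrnpm overlapped and those of Rbfox1 did not. Both genes were called lower in N40K mice, at -0.18 and -0.16. The Rbfox1 value was -0.021 under quantile normalization and -0.046 with the length trend removed, and the Hnrnpm value -0.030 and -0.092, with no call, and in all 5 and 8 of 25 alternatives lost these calls. Ptbp2 measured 33.2, 31.3 and 30.1 FPKM at 12 months, against 37.9, 35.5 and 33.4 FPKM at 3 months in N40K mice and 29.4, 33.1 and 31.2 FPKM at 12 months, against 33.7, 36.3 and 33.4 FPKM at 3 months in wild type. It did not overlap in either genotype, and was called lower in N40K mice at -0.17, a call lost in 8 of 25 alternatives (-0.038 under quantile normalization).

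Of those called in wild type only, Srrm1 was at -0.41 ± 0.093 (adjusted p 0.00527) and Nova1 at -0.29 ± 0.075 (0.00889), both under every alternative run. Hnrnpr, a relative of Syncrip, measured 12.4, 12.8 and 12.3 FPKM at 12 months, against 13.8, 13.2 and 12.4 FPKM at 3 months in N40K mice and 11.5, 11.6 and 11.98 FPKM at 12 months, against 12.6, 13.9 and 13.1 FPKM at 3 months in wild type. Its ages overlapped in N40K mice alone, and it was called lower in wild type at -0.16, a call lost in 6 of 25 alternatives. Tia1 measured 25.7, 24.7 and 23.6 FPKM at 12 months, against 24.8, 24.5 and 23.6 FPKM at 3 months in N40K mice and 25.1, 20.5 and 25.04 FPKM at 12 months, against 27.2, 27.7 and 25.9 FPKM at 3 months in wild type. The same held for its overlap. The wild-type call of Tia1, -0.19 with an adjusted p of 0.043, was lost in 17 of 25 alternatives. Ewsr1 and Tial1 were also lower in wild type, at -0.22 and -0.24, with the Ewsr1 call lost under all 4 other scalings (-0.10 to -0.14) and the Tial1 call under 2 of them. Khdrbs1, which encodes Sam68, measured 26.1, 26.5 and 25.7 FPKM at 12 months, against 29.5, 30.5 and 27.7 FPKM at 3 months in N40K mice and 26.6, 25.8 and 26.8 FPKM at 12 months, against 28.2, 30.8 and 30.8 FPKM at 3 months in wild type. Its ages did not overlap, and it was lower in both genotypes, at -0.16 and -0.17. Both Khdrbs1 calls were lost under quantile normalization (-0.034 and -0.089), after median-ratio scaling (-0.060 and -0.094) and with the length trend removed (-0.071 and -0.099). Because no entry was called in the comparison of the genotype effect between ages, none of these members was shown to age differently in the 2 genotypes. In all, 21 entries were called with age in both genotypes (6 higher, 15 lower) and 15 in neither. In none of the 6 comparisons was any of 12 entries called: both Hnrnpa3 entries, Hnrnpc, Hnrnpk, Hnrnpl, Nono, Mbnl1, Elavl2, Khdrbs3, Qk, Srrm2 and Srrm4. With other settings some of these were called with age. After median-ratio scaling Elavl2 was called higher, at 0.28 in N40K mice (adjusted p 0.0208) and 0.29 in wild type (0.0207). The same scaling called Hnrnpk higher in N40K mice (0.14, 0.0271), and Hnrnpc (0.21, 0.0334) and Khdrbs3 (0.26, 0.048) higher in wild type. With the length trend removed Qk was called lower, at -0.33 in N40K mice (0.000846) and -0.22 in wild type (0.0105). Srrm2, whose ages did not overlap in N40K mice, was called higher there with only the groups of the contrast in the fit (0.25, 0.0109). Without wild-type replicate 2 of the 12-month group Srrm2 was called higher in N40K mice (0.25, 0.00269) and in wild type (0.18, 0.0367).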

How the data were processed

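Poly-A RNA of mouse hippocampus went into TruSeq libraries that a HiSeq instrument read from both ends, 100 bases each, per the labels' protocols. The authors deposited FPKM values in 1 table with a column per library, and all 12 columns matched a title. CASAVA, STAR, BWA and mm9 are named, without roles or versions, in the submitters' processing notes. No source used here gives the counting tool, annotation or strand setting, so overlapping genes and copies are uncertain.

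Tests used log2(FPKM + 1) of the deposited values with no added scaling. The filter was at least 1 FPKM in at least 3 libraries. A limma-trend model (limma 3.58.1, R 4.3.3) with a mean per group gave all contrasts, two-sided, with Benjamini-Hochberg adjustment over all 13945 genes and a threshold of 0.05. The log2(FPKM + 1) scale understates changes of low genes. The procedure was tested on simulated data. Depth came from the spacing of low FPKM values of a set of 1139 receptor genes. Of the 60 to 102 values used per library, 5.0% to 71.6% were whole within 0.02 of a fragment, so no count test was run. Other settings tried were a pseudocount of 0.1 or 0.5, no filter, a filter on the mean (5 FPKM), scaling by median ratios or quantiles, subtracting a lowess curve (span 0.3) over length or GC, Xist, Ttr or the replicate number as covariates, robust eBayes, only the groups of a contrast, and each library left out.

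The members, lists and tests were chosen with earlier results of these data known. Members called in any contrast were named with their value in every library, and of each other list up to 4 genes with the smallest p in each direction of the averaged contrast. GENCODE M21 gave names, lengths, overlaps and copies, and 98.6% of entries matched. It and the RefSeq promoters (GRCm38.p6, with entries for 43 of the 47 members) lie on another build than mm9. Python 3.11.15, pandas 2.3.3, numpy 2.4.6, Biopython 1.88 and matplotlib 3.10.9 were used.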

Additional observations from a re-analysis of the deposited data

Results flagged for a closer look

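In 2 members every N40K library lay on 1 side of wild type at 12 months and on the other side at 3 months. Tra2b was lower in N40K mice at 12 months and higher at 3 months, a genotype effect at 12 minus 3 months of -0.268 (limma adjusted p 0.114). Tardbp was higher at 12 months and lower at 3 months, with 0.228 (adjusted p 0.294). Neither effect was called, so a difference between the ages was not shown. The part of the unequal sex of the 3-month libraries and, for Tardbp, of its overlap with Masp2 was not tested.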

How the results depend on the processing

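Of the 2259 recomputed differences of called members, 1982 kept their direction and their call, 271 kept the direction only and 6 reversed. All 6 were age differences in N40K mice. They were 0.0206 for the entry of Hnrnpa1 and Gm10052 with the length trend removed, 0.0673 and 0.0751 for Hnrnpa2b1 under quantile normalization and with the length trend removed, 0.0623 for Nova2 with the GC trend removed, and -0.0406 for Rbfox2 and -0.109 for Celf2 with the length trend removed. Calls that held in all alternatives numbered 7 of 11 at 12 months, 2 of 8 at 3 months, 9 of 15 averaged, 5 of 30 for age in N40K mice and 11 of 27 for age in wild type. The cause was not tested.

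Of the counts of called members, the age count in N40K mice was 30 as reported, 18 under quantile normalization and 17 with the length trend removed. Leaving out 1 library at a time gave 7 to 12 calls at 12 months, 3 to 13 at 3 months (13 without wild-type replicate 2 of the 12-month group), 12 to 16 averaged, 22 to 36 for age in N40K mice, 21 to 27 for age in wild type, and 0 to 1 for the change between ages, where the call was Hnrnpa0 without N40K replicate 1 of the 3-month group. Of all genes called, the share higher in N40K mice at 3 months was 69.5% as deposited and 52.7% to 54.4% under median-ratio, quantile, length and GC scaling. It was 61.9% and 49.1% to 51.7% averaged, and for age, higher at 12 months, 29.3% and 46.4% to 51.5% in N40K mice and 30.3% and 49.4% to 51.7% in wild type. These scalings bring the libraries to a common centre, so more even shares follow in part from the scaling itself. The fit with only the groups of a contrast was not run for the averaged and between-age comparisons, which use all groups.

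The replicate number as a block gave 10 calls at 12 months, 9 at 3 months, 14 averaged, 0 between ages, 31 for age in N40K mice and 28 in wild type. Deviations of same-numbered libraries correlated at 0.073, 0.001 and 0.197 at 12 months and 0.057, -0.456 and -0.349 at 3 months. These values cannot settle whether the numbers pair the libraries, because deviations from a mean of 3 libraries constrain each other. The number of libraries, 3 a group, and the approximate depth limit what could be called.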

Other observations

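The related lists were also counted with age. Of the 39 other RNA-binding splicing regulators tested, 5 were higher and 23 lower at 12 months in N40K mice, which is 12.8% and 59.0%, against 15.1% and 36.5% of all genes (limma, adjusted p under 0.05). In wild type 3 were higher and 21 lower, which is 7.69% and 53.8%, against 12.6% and 29.0%. Under the 4 other scalings 3 to 7 were higher and 11 to 14 lower in N40K mice, and 5 to 7 higher and 13 to 17 lower in wild type. Of the 31 genes with exons known to be regulated by members, 16 were higher and 7 lower in N40K mice, which is 51.6% and 22.6%, and 12 higher and 5 lower in wild type, which is 38.7% and 16.1%. Under the other scalings 11 to 17 of them were higher and 2 to 7 lower in N40K mice, and 9 to 15 higher and 2 to 7 lower in wild type. The medians of these 31 genes were 0.11 in N40K mice and 0.071 in wild type, against -0.10 and -0.077 for all genes, and 0.033 and 0.041 with the length trend removed. The ages differ in sex, and its part was not tested for these lists.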
